A study of Mus musculus with 24 samples.

Results

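A set of 8 receptors of chemokines and formyl peptides was followed in 24 RNA-seq libraries of mouse bone marrow-derived macrophages: Ccr1, Ccr2, Ccr7, Ccrl2, Cx3cr1, Cxcr4, Fpr1 and Fpr2. They were chosen by name, as the rows of the deposited count tables whose Ensembl identifier carries 1 of these symbols. All 8 members were found among the 52636 genes of each table, and all 8 passed the filter on low counts that left 14681 genes for testing.

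Most of these receptors are G protein-coupled receptors of the Gi type: a ligand outside the cell sets off G protein release, phosphoinositide 3-kinase and Rac activity, and movement towards the source of the ligand. Fpr1 and Fpr2 bind N-formylated peptides that bacteria and damaged mitochondria release, and Fpr2 also binds serum amyloid A and annexin A1. Ccr2 receives Ccl2 and brings monocytes out of the bone marrow, Cx3cr1 receives fractalkine, Cxcr4 receives Cxcl12, and Ccr7 receives Ccl19 and Ccl21 in cells on their way to lymph nodes. Ccrl2 is an atypical receptor that presents chemerin rather than signalling by itself.

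The macrophages were grown from bone marrow with M-CSF and compared in 8 groups of 3 libraries, with 3 individual mice named as independent replicates. TBK1 was wild type (TBK1-WT) or altered (TBK1-cKD, called a conditional knockout in the series record, with no allele or Cre driver described). IKKe was intact (control, written ∆control) or removed (IKKe knockout, written ∆IKKe). Each of these 4 genotypes was untreated or had 8 h of R837 (imiquimod), an agonist of Toll-like receptor 7. TBK1 and IKKe are the kinases of the IkB kinase family that act in interferon and NF-kB signalling. Every record carries a protocol in which wild-type C57BL/6N mice and R837 are named, so genotype and treatment were taken from the titles. Neither the strain background of the altered cells, nor the exons concerned, nor the way IKKe was removed is stated. The p-values rest on the spread between mice within groups, estimated over all 8 groups together and not only over the groups compared.

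Libraries held 19727746 to 41323219 gene counts. Untreated, Tbk1 RNA was lower in TBK1-cKD control (74.6 ± 1.55 CPM, SD, n = 3) than in TBK1-WT control (102 ± 1.88). The untreated libraries labelled as TBK1-cKD IKKe knockout lay between them (89 ± 1.47). After R837 Tbk1 RNA was at 101 ± 7.12 CPM in TBK1-cKD control and 130 ± 16.2 in TBK1-WT control. The treated libraries labelled as TBK1-cKD IKKe knockout, at 115 to 136 CPM, overlapped those of TBK1-WT control (118 to 148). Ikbke RNA went with the label in untreated TBK1-WT IKKe knockout (35.1 ± 0.713 CPM, against 59.5 ± 0.452 in its control) but not in the untreated libraries labelled as TBK1-cKD IKKe knockout (79.6 ± 2.41, against 73.8 ± 2.29 in TBK1-cKD control). After R837 the labelled group had 77.7, 82.7 and 259 CPM of Ikbke, against 240, 239 and 248 in TBK1-cKD control, so that replicates 1 and 2 lay below the libraries of TBK1-cKD control and replicate 3 above them. Treated TBK1-WT IKKe knockout had 75.6 ± 4.58 CPM of Ikbke, and its treated control 286 ± 104 (220 to 406). The altered exons are not known, so these Tbk1 and Ikbke values neither settle nor overturn the label TBK1-cKD IKKe knockout. The group is called by its label throughout. Macrophage genes such as Lyz2, Adgre1 and Csf1r were abundant in all 24 libraries, with a summed level of 18000 to 34600 CPM over 12 genes. Of the marker genes of other cells, many were near 0: Ly6g never passed 0.0379 CPM, Ly6c2 0.294, Flt3 0.198, Cd209a 0.0639, Cd3e 0.0289 and the mast cell gene Cpa3 0.106. Others on the same lists reached high levels, with a maximum of 495 CPM for Hp, 305 for Ms4a4c, 213 for S100a8, 198 for Fscn1, 117 for Ccl22, 55.4 for Mmp8 and 48.2 for Hdc. Genes that never passed 1 CPM were 5 of 8 on the monocyte list, 6 of 12 for neutrophils, 8 of 11 for dendritic cells, 9 of 10 for lymphocytes and 6 of 8 for mast cells and basophils. The summed level of this last list went from 3.86 to 4.3 CPM in untreated TBK1-WT control to 7.61 to 13.4 after R837, and from 1.71 to 1.9 to 32.5 to 49 in the libraries labelled as TBK1-cKD IKKe knockout. Hdc led it in every treated genotype, with 93.5% of the sum in TBK1-WT control and 98.4% in the labelled group. Nuclear RNA (the mean of Malat1, Neat1 and Xist) set the libraries apart: it was high in 14 libraries (all 12 untreated ones, R837 TBK1-WT control replicate 1, and R837 replicate 3 of those labelled as TBK1-cKD IKKe knockout) and low in the other 10, all treated. Results after R837 are therefore also given on the 10 treated libraries of low nuclear RNA where that changes them. All treated TBK1-cKD control libraries were low in it, so the 259 CPM of Ikbke in replicate 3 was set against libraries of the other level. In R837 TBK1-WT control and the treated labelled group the spread between mice also holds this difference in nuclear RNA. CPM is a count scaled to the library's effective size, and log2 changes are given ± the standard error of an edgeR quasi-likelihood fit, with Benjamini-Hochberg adjusted p over all tested genes and a threshold of 0.05.

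**Figure D1:**
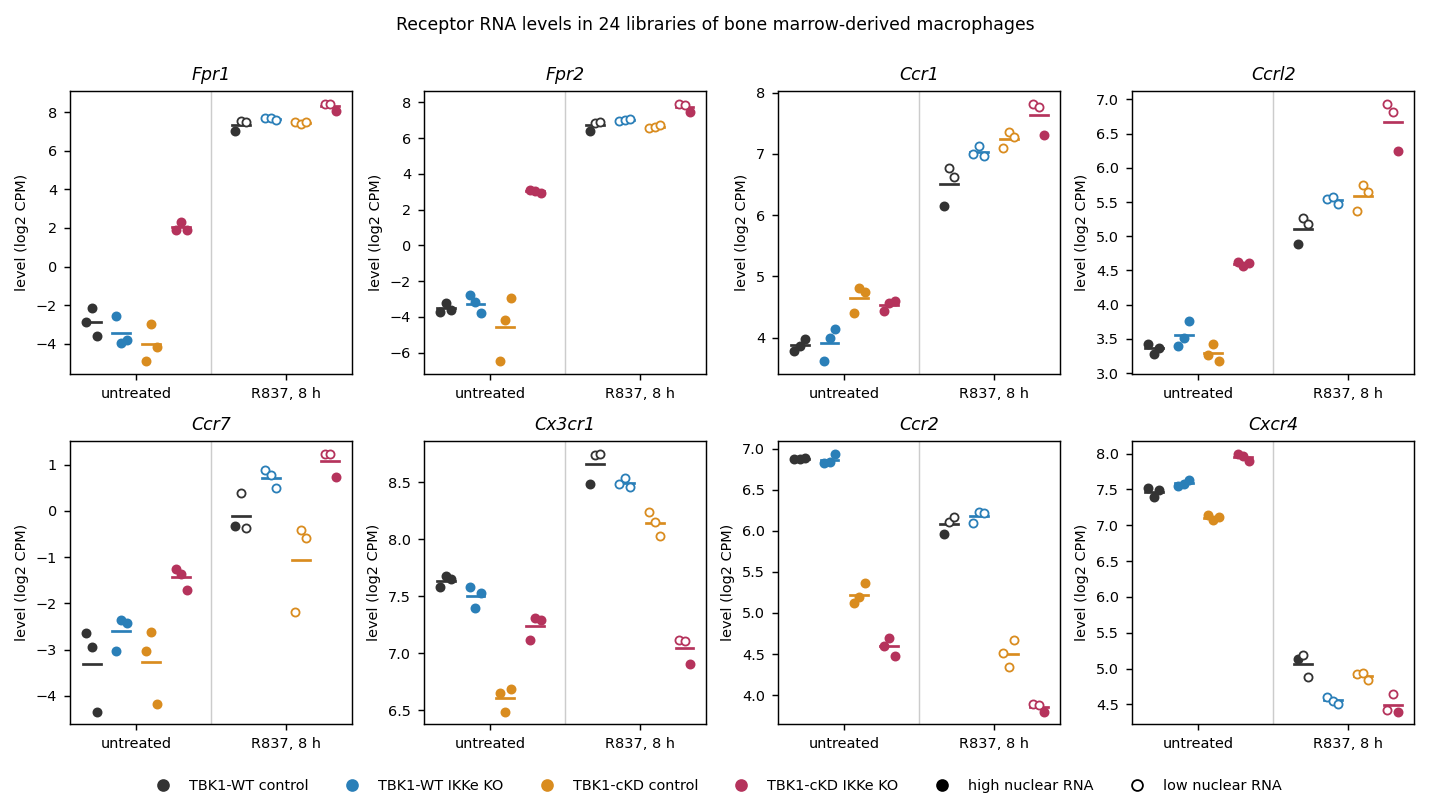
Level of each receptor (vertical axis, log2 CPM) in 24 libraries, by genotype (colour) and treatment (left and right of the grey line). Each point is 1 library and each bar the mean of 3, with filled points for libraries of high nuclear RNA. Fpr1 and Fpr2 lie far above their untreated levels after R837, and Ccr2 is lower in both TBK1-cKD genotypes with and without R837.

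R837 changed every one of the receptors in TBK1-WT control: 6 rose, 2 fell, and the treated and untreated libraries of all 8 did not overlap. At 8 h 62.6% of all tested genes were called (30.6% up and 32.0% down) and 66.6% had libraries that did not overlap, so a call by itself sets no receptor apart, and the sizes carry the description. The median log2 change of the members was 2.20, beside -0.04 over all tested genes. In TBK1-WT IKKe knockout 8 members were called (70.2% of all genes), 6 up (32.4%) and 2 down (37.8%), all without overlap (80.1%). In TBK1-cKD control 8 were called (69.1%), 6 up (31.6%) and 2 down (37.5%), again without overlap (71.7%). In the libraries labelled as TBK1-cKD IKKe knockout 8 were called (66.5%), 5 up (31.6%) and 3 down (34.8%), with Cx3cr1 now among those that fell, and 7 did not overlap (69.7%).

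The formyl peptide receptors moved most. Fpr1 lies on chr17:17876471-17883940 (minus strand) and Fpr2 on chr17:17887824-17893952 (plus strand) of GRCm38, head to head with 3884 bases between their annotated starts. In the GENCODE annotation an exon of Fpr2 overlaps Fpr3 on the same strand, but Fpr3 held 18 counts over all 24 libraries and Fpr2 48249. The 250 bases before the RefSeq start of each (GRCm38.p6, 5′ to 3′ on the gene's strand) are printed because the pair is transcribed away from this interval and rose together. Capitals mark GAGGAA on either strand, the core of PU.1-type sites. The windows are chr17:17883940-17884189 for Fpr1 and chr17:17887574-17887823 for Fpr2.
Fpr1: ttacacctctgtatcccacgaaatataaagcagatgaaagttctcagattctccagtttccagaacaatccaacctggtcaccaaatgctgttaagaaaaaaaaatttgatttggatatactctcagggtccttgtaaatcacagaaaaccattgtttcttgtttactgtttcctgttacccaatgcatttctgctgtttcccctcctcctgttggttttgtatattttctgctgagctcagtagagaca
Fpr2: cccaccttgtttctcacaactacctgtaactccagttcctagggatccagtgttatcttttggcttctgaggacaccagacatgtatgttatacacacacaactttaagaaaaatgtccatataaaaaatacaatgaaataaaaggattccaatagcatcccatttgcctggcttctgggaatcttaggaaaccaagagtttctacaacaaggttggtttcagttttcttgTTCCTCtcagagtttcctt
The Fpr2 window holds TTCCTC, the reverse complement of GAGGAA, with its first base 19 before the start (position -19). No motif searched was found for Fpr1 in its 300 bases, which include 50 after the start. GAGGAA is present in 28.3% of all 32851 promoter windows of that length, so its presence is common.

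Without treatment, both were close to absent in 3 of the genotypes. Fpr1 had 6, 9 and 2 counts in the 3 untreated libraries of TBK1-WT control, 7, 1 and 2 in TBK1-WT IKKe knockout, and 1, 3 and 1 in TBK1-cKD control. Fpr2 had 3, 4 and 2 counts, 6, 2 and 2, and 0, 1 and 3 in the same groups. At these counts the 3 genotypes could not be told apart for either gene: against TBK1-WT control, Fpr1 was at -1.43 ± 0.71 log2 and Fpr2 at -0.84 ± 0.83 in TBK1-cKD control (adjusted p = 0.367 and 0.805, edgeR).

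The untreated libraries labelled as TBK1-cKD IKKe knockout differed. They held 137, 133 and 128 counts of Fpr1 (3.72, 4.95 and 3.76 CPM) and 312, 218 and 260 counts of Fpr2 (8.46, 8.11 and 7.65 CPM). Every one of these values lay above every untreated library of the other genotypes. Against TBK1-WT control the difference was 4.82 ± 0.29 log2 for Fpr1 (adjusted p = 5.67e-11) and 6.67 ± 0.29 for Fpr2 (adjusted p = 3.74e-13). As a ratio of counts per effective library, Fpr2 was 107-fold higher, with a 95% interval for counting error of 56.3 to 236, and Fpr1 28.6-fold (17.7 to 49.7). The levels were still a small share of those after stimulation: untreated Fpr2 in this group stood at 7.69% of its R837 level in TBK1-WT control, and Fpr1 at 2.54%.

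After R837, Fpr1 reached 130, 184 and 176 CPM in TBK1-WT control, 205, 204 and 194 in TBK1-WT IKKe knockout, 175, 168 and 178 in TBK1-cKD control, and 348, 347 and 265 in the libraries labelled as TBK1-cKD IKKe knockout. Fpr2 reached 83.6, 115 and 117 CPM, then 124, 128 and 134, then 94.7, 97 and 107, then 243, 232 and 173. For both genes the last group lay above every other library, and its lowest library was replicate 3, the one of high nuclear RNA. The lowest library of TBK1-WT control, replicate 1, also had high nuclear RNA.

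The induction was 10.13 ± 0.24 log2 for Fpr1 and 10.38 ± 0.26 for Fpr2 in TBK1-WT control (adjusted p = 1.26e-18 and 2.56e-18). As ratios of counts these were 1120-fold (698 to 1920) and 1360-fold (716 to 2970), with wide intervals that come from the few untreated counts. In the libraries labelled as TBK1-cKD IKKe knockout the induction was smaller, 6.28 ± 0.17 and 4.74 ± 0.16 log2, from a higher untreated level to a higher treated one. The difference of the induction from that of TBK1-WT control was -3.85 ± 0.34 for Fpr1 and -5.64 ± 0.35 for Fpr2 (adjusted p = 4.23e-08 and 3.04e-10). These 2 comparisons share the TBK1-WT control libraries with the ones above.

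After R837 the libraries labelled as TBK1-cKD IKKe knockout exceeded TBK1-WT control by 0.97 ± 0.13 log2 for Fpr1 and 1.04 ± 0.13 for Fpr2 (adjusted p = 5.8e-06 and 2.69e-06), and on the libraries of low nuclear RNA by 0.94 and 1.02. Neither single change gave a call in the same fit. TBK1-cKD control differed by 0.09 log2 for Fpr1 (95% interval -0.19 to 0.37) and -0.08 for Fpr2 (-0.36 to 0.21). On the libraries of low nuclear RNA the Fpr1 value turned to -0.05, and that of Fpr2 became -0.22 ± 0.06, which passed the threshold (adjusted p = 0.0494). TBK1-WT IKKe knockout differed by 0.30 ± 0.13 and 0.29 ± 0.13 (adjusted p = 0.332 and 0.345), with libraries that did not overlap those of TBK1-WT control, and by 0.15 and 0.14 on libraries of low nuclear RNA. The TBK1 by IKKe interaction, the amount by which the doubly altered group exceeds the sum of the single differences, was 0.82 ± 0.19 for Fpr2 (adjusted p = 0.00446). For Fpr1 it was 0.58 ± 0.19 (adjusted p = 0.0322), and this call was lost without any 1 of 9 of the 12 treated libraries (adjusted p up to 0.0702) and with only the treated groups fitted (0.0793), while on libraries of low nuclear RNA it was 0.84 (adjusted p = 9.45e-06).

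Per length, in deposited RPKM, the ratio of Fpr2 to Fpr1 was 2.67, 1.92 and 2.38 in the untreated libraries labelled as TBK1-cKD IKKe knockout and 0.814, 0.782 and 0.765 after R837. The 2 sets of libraries did not overlap, and an exact two-sided permutation test gave p = 0.1, the smallest value 3 against 3 allows, so the test could not pass 0.05. In the other genotypes the untreated counts were too few for such a ratio. In the other 3 genotypes after R837 the mean ratio was 0.67 to 0.753.

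Ccr1 lies on chr9:123962124-123968692 (minus strand) and encodes a receptor of Ccl3, Ccl5 and, in the mouse, Ccl6 and Ccl9. Ccrl2 lies on the same chromosome, chr9:111054486-111057519 (minus strand). The 250 bases before the RefSeq start are printed for both (GRCm38.p6, 5′ to 3′ on the gene's strand), as both rose in all genotypes and their windows hold matches of an NF-kB type pattern. Capitals mark the pattern (GGG, any 5 bases, CC) on either strand and, in Ccr1, GAGGAA. The windows are chr9:123968693-123968942 for Ccr1 and chr9:111057519-111057768 for Ccrl2, at the most upstream of its 3 RefSeq starts.
Ccr1: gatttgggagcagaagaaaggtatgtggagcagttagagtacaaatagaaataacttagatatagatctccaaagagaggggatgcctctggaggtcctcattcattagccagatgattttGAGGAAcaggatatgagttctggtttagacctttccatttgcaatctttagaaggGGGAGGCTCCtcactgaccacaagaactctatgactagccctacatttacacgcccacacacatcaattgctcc
Ccrl2: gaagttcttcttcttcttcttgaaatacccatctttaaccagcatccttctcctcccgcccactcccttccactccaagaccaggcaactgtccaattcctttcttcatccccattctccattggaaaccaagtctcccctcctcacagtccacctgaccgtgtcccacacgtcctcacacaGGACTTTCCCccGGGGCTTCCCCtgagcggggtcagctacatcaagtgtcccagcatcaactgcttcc
The Ccrl2 window holds 3 matches, GGACTTTCCC at position -68 and GGGGCTTCCC and GGGCTTCCCC at -56 and -55, which overlap each other. The windows of the other 2 Ccrl2 starts hold none. Ccr1 holds GGGAGGCTCC at -74 and GAGGAA at -129. The NF-kB type pattern is found in 50.8% of all promoter windows, so a match is common too. Of the 7 members with a RefSeq window, Cx3cr1 also held it (GGTTTGCCCC at -174), and Ccr2, Cxcr4, Fpr1 and Fpr2 did not. GAAA, any 2 bases, GAAA (interferon-response type, 3.44% of windows) and TGANTCA (AP-1 type, 7.81%) were in no member's window.

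Ccr1 rose from 13.7, 14.6 and 15.7 CPM in untreated TBK1-WT control to 70.8, 109 and 98.2 after R837. The other treated groups lay higher, at 128, 139 and 124 CPM in TBK1-WT IKKe knockout, 137, 165 and 156 in TBK1-cKD control, and 226, 217 and 159 in the libraries labelled as TBK1-cKD IKKe knockout. Neighbours in that order overlapped except the lowest 2, TBK1-WT IKKe knockout and TBK1-WT control, whose replicate 1 of high nuclear RNA was the lowest treated library. The change by R837 was 2.66 ± 0.17 log2 in TBK1-WT control (adjusted p = 9.82e-12) and 2.59 to 3.11 in the other genotypes. No difference of these responses from that of TBK1-WT control passed the threshold, but with nuclear RNA as a term that of the libraries labelled as TBK1-cKD IKKe knockout did (0.46 ± 0.15, adjusted p = 0.0185, against 0.46 ± 0.22 and 0.19 without it).

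Before treatment Ccr1 was already higher in both TBK1-cKD genotypes, at 21, 28.1 and 26.9 CPM in TBK1-cKD control (0.79 ± 0.16 log2, adjusted p = 0.00439) and 21.6, 23.6 and 24.1 in the libraries labelled as TBK1-cKD IKKe knockout (0.66 ± 0.16, adjusted p = 0.00701). After R837 the differences from TBK1-WT control were 0.72 ± 0.15 (adjusted p = 0.0047) and 1.11 ± 0.15 (adjusted p = 6.33e-06). The first was lost when only the 2 groups were fitted (adjusted p = 0.141), and on libraries of low nuclear RNA it was 0.56 (adjusted p = 0.00217). For TBK1-WT IKKe knockout the difference was 0.50 ± 0.15 (adjusted p = 0.119). Over the alternatives it ran from 0.32 to 0.63, with adjusted p from 0.036 (no count filter) up to 0.627. The doubly altered group passed TBK1-cKD control by 0.40 ± 0.15 only narrowly (adjusted p = 0.0494), with overlapping libraries. Of the alternatives the size factors of DESeq2, the fit on the 2 groups and the omission of any 1 library of these 2 groups apart from replicate 3 of the labelled one took that call away, and in a fit that adds nuclear RNA it was 0.55 (adjusted p = 5.97e-05). Reads of Ccr1 and its near copy Ccr1l1 may have been split or dropped by the counting; Ccr1l1 itself never passed 1.26 CPM.

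Ccrl2 stood at 10.8, 9.69 and 10.3 CPM in untreated TBK1-WT control and 29.3, 38.5 and 36.2 after R837, a rise of 1.75 ± 0.15 log2 (adjusted p = 1.32e-09). In the untreated libraries labelled as TBK1-cKD IKKe knockout it was already at 24.6, 23.8 and 24.4 CPM, 1.24 ± 0.15 log2 above TBK1-WT control (adjusted p = 2.52e-06) and 70% of that control's level after R837. Untreated TBK1-cKD control lay at 9.62, 10.8 and 8.98, with no call (-0.07 ± 0.15, adjusted p = 0.961).

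With R837 the libraries labelled as TBK1-cKD IKKe knockout rose further, to 123, 112 and 75.8 CPM, above all others (1.58 ± 0.14 log2 over TBK1-WT control, adjusted p = 1.43e-08). TBK1-WT IKKe knockout had 46.4, 47.7 and 44.4 CPM and TBK1-cKD control 41.5, 53.8 and 50.1, which overlap each other and lie above TBK1-WT control. For the former the difference was 0.41 ± 0.14 (adjusted p = 0.172). For the latter it was 0.48 ± 0.14 (adjusted p = 0.0347), a call lost on libraries of low nuclear RNA (0.37, adjusted p = 0.0522), in the fit of the 2 groups (adjusted p = 0.286), without TBK1-WT control replicate 1 (0.36, adjusted p = 0.209) or replicate 3 (adjusted p = 0.052), and without TBK1-cKD control replicate 2 or 3 (adjusted p = 0.145 and 0.0761). The interaction was 0.68 ± 0.20 (adjusted p = 0.0189, and 0.114 when only the 4 treated groups were fitted).

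Ccr7 (chr11:99144196-99155077, minus strand) was the weakest receptor per length in every treated genotype. Untreated, it was also last in TBK1-WT control and in the libraries labelled as TBK1-cKD IKKe knockout. In untreated TBK1-WT IKKe knockout Ccr7 (0.0767 RPKM) stood above Fpr1 (0.0648). In untreated TBK1-cKD control Ccr7 (0.0485) stood above Fpr1 and Fpr2 (0.0415 and 0.0422). Its untreated libraries held 7, 5 and 1 counts in TBK1-WT control, 5, 4 and 6 in TBK1-WT IKKe knockout, 5, 4 and 1 in TBK1-cKD control and 15, 10 and 10 in those labelled as TBK1-cKD IKKe knockout. After R837 the same genotypes held 32, 39 and 19 counts, 51, 43 and 39, 7, 13 and 17, and 62, 69 and 57. No library passed 2.35 CPM, so Ccr7 RNA was induced but stayed scarce. The response was 3.08 ± 0.44 log2 in TBK1-WT control (adjusted p = 3.06e-06) and 2.25 ± 0.52 in TBK1-cKD control (adjusted p = 0.000682). The libraries labelled as TBK1-cKD IKKe knockout were above TBK1-WT control by 1.70 ± 0.49 untreated (adjusted p = 0.0227) and 1.16 ± 0.31 after R837 (adjusted p = 0.00647). The first call was lost without any 1 of the 3 TBK1-WT control libraries except replicate 1, and without replicate 1 or 2 of the labelled ones (adjusted p up to 0.0936), the second on libraries of low nuclear RNA (1.17, adjusted p = 0.0604). TBK1-cKD control lay at -0.93 ± 0.37 after R837 (adjusted p = 0.123), with a call when nuclear RNA was a term (-1.11, adjusted p = 0.0473). The interaction of 1.29 ± 0.48 missed the threshold (adjusted p = 0.0586) and passed it with that term (1.61, adjusted p = 0.0203). Of 5 tested markers of dendritic cells, the cells in which Ccr7 is best known, Fscn1 and Ccl22 rose with R837 in TBK1-WT control (5.68 ± 0.29 and 5.59 ± 0.24 log2), and Bcl11a, Zbtb46 and Siglech fell (-1.98 ± 0.68, -2.02 ± 0.62 and -3.45 ± 1.42). Their summed level over 11 genes went from 3.43 to 4.25 CPM up to 82.3 to 133 in TBK1-WT control and from 17.5 to 20.3 up to 160 to 280 in the libraries labelled as TBK1-cKD IKKe knockout. Ccl22 and Fscn1, which activated macrophages also express, were the leading genes of that sum in every group, and 8 of the 11 genes never passed 1 CPM; their part in the Ccr7 values was not tested.

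**Figure D2:**
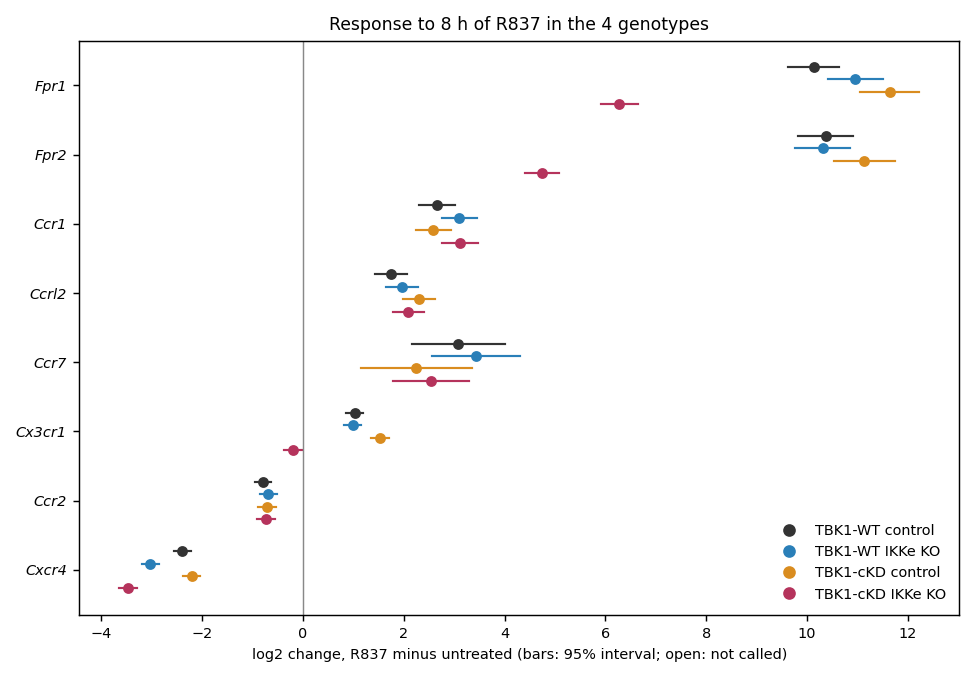
Log2 change after 8 h of R837 (horizontal axis) of each receptor in the 4 genotypes, with 95% intervals. In the libraries labelled as TBK1-cKD IKKe knockout Fpr1 and Fpr2 changed by 6.28 and 4.74 against 10.13 and 10.38 in TBK1-WT control, and Cx3cr1 lies on the other side of 0.

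Cx3cr1, the receptor of fractalkine and a gene of resident and patrolling cells of the monocyte lineage, lies on chr9:119901616-120069879 (minus strand). The antisense gene Gm33858 overlaps its exons, but held 114 counts in all against 168980 of Cx3cr1, and the unstranded kit cannot separate them. In TBK1-WT control Cx3cr1 went from 191, 205 and 201 CPM to 356, 428 and 431, a rise of 1.03 ± 0.08 log2 (adjusted p = 7.25e-10). TBK1-WT IKKe knockout gave 191, 169 and 184 CPM untreated and 357, 371 and 353 after R837, and its treated libraries overlapped those of the control. The difference after R837 was -0.17 ± 0.08 (adjusted p = 0.371), and it was called on libraries of low nuclear RNA (-0.26, adjusted p = 0.0372).

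TBK1-cKD control started at 100, 89.6 and 103 CPM, about 49.2% of the TBK1-WT control mean (-1.02 ± 0.08 log2, adjusted p = 1.7e-07), and reached 302, 284 and 261 after R837. It stayed below TBK1-WT control there by 0.52 log2 (SE 0.08, adjusted p = 0.00032; 0.0959 in the fit of the 2 groups). Its response was larger, at 1.53 ± 0.08, and the difference from the TBK1-WT control response was 0.50 ± 0.12 (adjusted p = 0.0433). That call was lost without any 1 of 9 of the 12 libraries involved and in the fit of the 4 groups (adjusted p = 0.183), while it held in a fit that adds nuclear RNA (0.43, adjusted p = 0.00568).

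The libraries labelled as TBK1-cKD IKKe knockout had 139, 158 and 157 CPM untreated and 139, 138 and 120 after R837. They alone lacked the rise: the change was -0.19 ± 0.08 (adjusted p = 0.0452), with overlapping libraries. This small fall left the calls with size factors of DESeq2, DESeq2 itself, no count filter and the fit of the 2 groups. The omission of single libraries also took it out, at adjusted p up to 0.192. In a fit that adds nuclear RNA the fall was larger (-0.35 ± 0.07, adjusted p = 0.000151). The fall was -0.32 on libraries of high nuclear RNA, where replicate 3 was the only treated library of this group. The absence of the rise does not rest on it: the response differed from that of TBK1-WT control by -1.22 ± 0.12 (adjusted p = 1.25e-07, and at most 8.31e-05 over all alternatives). After R837 the group lay 1.61 log2 below TBK1-WT control (SE 0.08, adjusted p = 3.97e-12) and 1.09 log2 below TBK1-cKD control (SE 0.08, adjusted p = 2.17e-09). The interaction was -0.92 ± 0.12 (adjusted p = 1.36e-05).

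Ccr2 (chr9:124101950-124113557, plus strand) showed a difference between genotypes that R837 left in place. In untreated cells TBK1-WT control had 118, 117 and 118 CPM, and TBK1-WT IKKe knockout 113, 115 and 122. Far lower were TBK1-cKD control with 34.9, 36.4 and 41, and the libraries labelled as TBK1-cKD IKKe knockout with 24.2, 26 and 22.3. No TBK1-cKD library overlapped a TBK1-WT one, and their means were at 31.8% and 20.6% of the control mean. The differences were -1.65 ± 0.08 log2 (adjusted p = 1.11e-10) and -2.28 ± 0.08 (adjusted p = 2.44e-14).

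After R837 Ccr2 was at 62.1, 69.3 and 72 CPM in TBK1-WT control, 67.9, 74.8 and 74.3 in TBK1-WT IKKe knockout, 22.8, 20.2 and 25.4 in TBK1-cKD control and 14.8, 14.7 and 13.9 in the libraries labelled as TBK1-cKD IKKe knockout. R837 lowered it in each genotype, to 57.7, 62, 61 and 59.8% of the untreated mean (-0.79, -0.69, -0.71 and -0.74 log2, each with an SE of 0.08). The responses differed from that of TBK1-WT control by 0.11 (95% interval -0.13 to 0.34), 0.09 (-0.16 to 0.33) and 0.05 (-0.19 to 0.30), none past the threshold. Treated, the differences between genotypes were -1.57 ± 0.08 and -2.23 ± 0.09 (adjusted p = 2.17e-10 and 5.16e-14), and -1.62 and -2.27 on libraries of low nuclear RNA. IKKe knockout gave no call on a TBK1-WT background (0.09 ± 0.08, adjusted p = 0.572), yet the labelled group lay 0.66 log2 below TBK1-cKD control (SE 0.08, adjusted p = 3.3e-06). The interaction was -0.76 ± 0.12 (adjusted p = 0.000111).

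Ccr2 is a marker of monocytes newly arrived from the blood, so the other monocyte genes are given beside it. Their summed level over 8 genes was 15.3 to 17.1 CPM in untreated TBK1-WT control, 4.59 to 5.05 in TBK1-cKD control and 63.3 to 66 in the libraries labelled as TBK1-cKD IKKe knockout, where Hp alone gave 73% of it. F13a1 was lower in that group by 1.31 log2 (SE 0.17, adjusted p = 1.28e-05), and Chil3 was at -2.93 ± 0.68 (adjusted p = 0.00477), whereas Hp was higher by 6.70 (SE 0.16, adjusted p = 1.62e-17) and Ms4a4c by 0.98 (SE 0.20, adjusted p = 0.00174). Of the 8 genes, 5 never passed 1 CPM in any library, Ly6c2 among them. The share of these values in the Ccr2 difference was not tested, and fewer cells with the RNA cannot be told apart from less RNA per cell.

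Cxcr4 (chr1:128588199-128592293, minus strand), the receptor of Cxcl12 that holds cells in the marrow, fell most. TBK1-WT control went from 184, 169 and 180 CPM to 35.4, 36.5 and 29.4, which is 19% of the untreated mean (-2.39 ± 0.08 log2, adjusted p = 1.11e-16). TBK1-WT IKKe knockout went from 187, 190 and 199 to 24.5, 23.4 and 22.7, and TBK1-cKD control from 141, 135 and 138 to 30.4, 30.6 and 28.6. The libraries labelled as TBK1-cKD IKKe knockout went from the highest untreated values, 257, 251 and 239, to the lowest mean, with 21.4, 25 and 21.1. Their fall of 3.47 log2 (SE 0.08, adjusted p = 5.76e-19) exceeded that of TBK1-WT control by 1.08 (SE 0.10, adjusted p = 1.22e-07), and that of TBK1-WT IKKe knockout exceeded it by 0.63 (SE 0.10, adjusted p = 0.00513; 0.0528 in the fit of the 4 groups).

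Untreated, the order of Cxcr4 levels had no overlap between neighbours: the labelled group, TBK1-WT IKKe knockout, TBK1-WT control, TBK1-cKD control. The differences from TBK1-WT control were 0.49 ± 0.07 (adjusted p = 3.82e-05) for the labelled group and -0.36 ± 0.07 (adjusted p = 0.00288) for TBK1-cKD control, while 0.11 ± 0.07 for TBK1-WT IKKe knockout was not called (adjusted p = 1). After R837 the untreated order was gone. Both IKKe knockout groups were lower than TBK1-WT control, by 0.52 log2 (SE 0.07, adjusted p = 0.00032) on the TBK1-WT background and 0.59 (SE 0.07, adjusted p = 2.04e-06) in the labelled libraries, and they overlapped each other (-0.07 ± 0.08, 95% interval -0.22 to 0.09). The first of these was lost when only its 2 groups were fitted (adjusted p = 0.155) and was -0.50 on libraries of low nuclear RNA (adjusted p = 0.0266). TBK1-cKD control was at -0.18 ± 0.07 (adjusted p = 0.134, and 0.0233 without TBK1-WT control replicate 3), and the interaction at 0.11 ± 0.11 was not called (adjusted p = 0.449). Against TBK1-cKD control the labelled group was at -0.41 ± 0.07 (adjusted p = 0.000225).

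**Figure D3:**
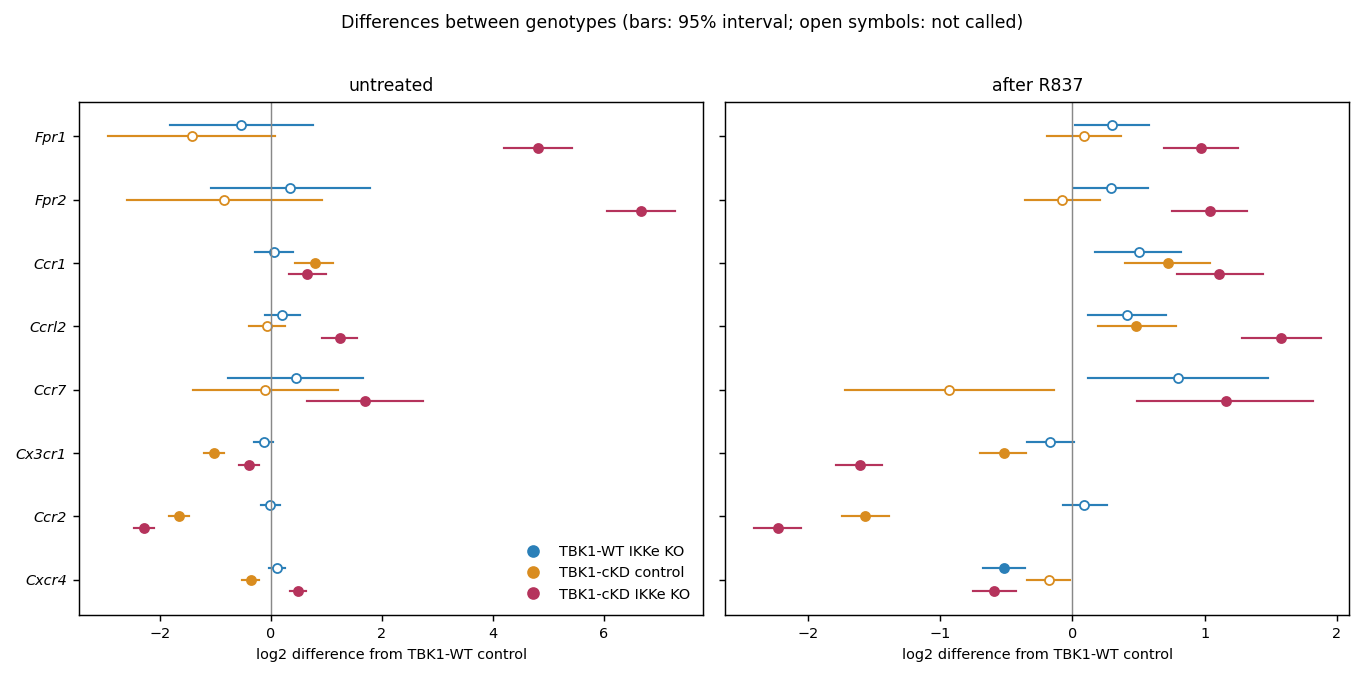
Log2 difference from TBK1-WT control (horizontal axis) of each receptor, untreated (left) and after R837 (right), with 95% intervals and open symbols where no call was made. All 8 receptors of the libraries labelled as TBK1-cKD IKKe knockout are called in both panels, and those of TBK1-WT IKKe knockout only once, for Cxcr4 after R837.

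Counted over the receptors, untreated TBK1-WT IKKe knockout gave 0 calls against TBK1-WT control, with 0 members at an unadjusted p under 0.05. The edgeR test called 0% of all genes there (422 of 14681 had an unadjusted p under 0.05, and DESeq2 called 1), so edgeR called no gene in this comparison. Ikbke, the gene of the removed kinase, was therefore not called either. Its libraries did not overlap (34.5 to 35.9 CPM against 59 to 59.9), so 0 calls do not show that nothing differed. Cxcr4 was the 1 receptor whose libraries did not overlap (16.2% of all genes). Untreated TBK1-cKD control gave 4 calls (5.05% of all genes), with Ccr1 up (2.40%) and Ccr2, Cx3cr1 and Cxcr4 down (2.65%), none of which overlapped (34.8%). The untreated libraries labelled as TBK1-cKD IKKe knockout gave 8 (13.6%), with 6 up (8.52%) and 2 down (5.10%), all without overlap (47.3%). After R837 TBK1-WT IKKe knockout gave 1 call, Cxcr4, which was down (1.85% of all genes, 1.14% up and 0.708% down), and 6 receptors did not overlap (18.0%). TBK1-cKD control gave 4 (8.89%), with Ccr1 and Ccrl2 up (4.48%) and Ccr2 and Cx3cr1 down (4.41%), and 5 did not overlap (20.5%). The labelled group gave 8 (32.2%), with 5 up (16.7%) and 3 down (15.5%), all without overlap (34.3%). The 4 calls of TBK1-cKD control after R837 fell to 1, Ccr2, when only the 2 groups were fitted. That fit has fewer libraries to estimate the spread, and its share of all genes is not given, so the drop does not set the receptors apart. Against TBK1-cKD control after R837 the labelled group gave 8 calls (34.5% of all genes), 5 up (18.3%) and 3 down (16.2%), with 7 not overlapping (36.8%). Against TBK1-WT IKKe knockout it gave 6 (30.6%), all but Ccr7 and Cxcr4, 4 up (16.5%) and 2 down (14.2%), with 6 not overlapping (43.2%). The response itself differed from that of TBK1-WT control for 1 receptor in TBK1-WT IKKe knockout (0.245% of all genes, 0.116% down), 1 in TBK1-cKD control (0.879%, 0.674% up) and 4 in the labelled group (17.3%, 7.38% up and 9.96% down), which were Cx3cr1, Cxcr4, Fpr1 and Fpr2, all lower. The interaction after R837 was called for 5 (22.2%), with Ccr2 and Cx3cr1 below the sum of the single differences (8.90%) and Ccrl2, Fpr1 and Fpr2 above it (13.3%). All of these comparisons with TBK1-WT control share its libraries.

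**Figure D4:**
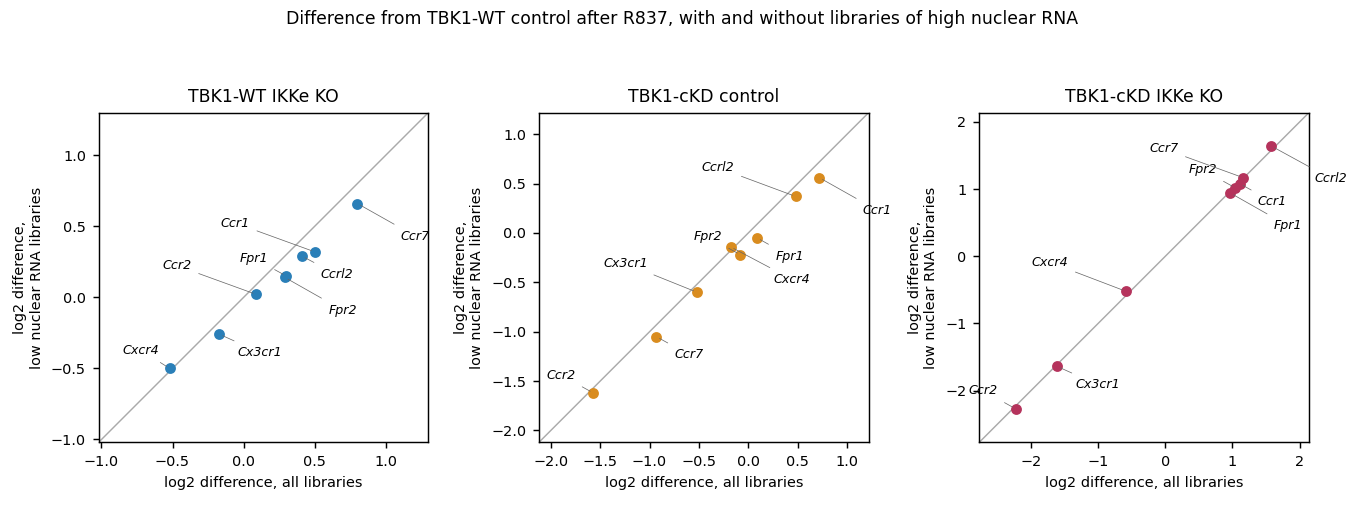
Log2 difference from TBK1-WT control after R837 computed on all libraries (horizontal axis) and on the treated libraries of low nuclear RNA (vertical axis), for 3 genotypes. Each point is a receptor and the grey line marks equal values. The points of the right panel lie on or near the line (Ccr2 at -2.23 and -2.27), and those of the other panels mostly just below it.

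Nuclear RNA moved with several of these values. TBK1-WT control replicate 1, the 1 library of that treated group with high nuclear RNA, was the lowest of its group for Ccr1, Ccr2, Ccrl2, Cx3cr1, Fpr1 and Fpr2. For Cxcr4 it lay above the mean of that group. For the libraries labelled as TBK1-cKD IKKe knockout, for which that choice removes 1 library from each of the groups compared, the differences on libraries of low nuclear RNA kept their sign and size for all 8 receptors, from -2.27 for Ccr2 to 1.64 for Ccrl2. On the 14 libraries of high nuclear RNA, which hold 1 treated library of each of these 2 groups, they ran from -2.14 for Ccr2 to 1.38 for Ccrl2. What set the nuclear RNA apart was not tested.

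**Figure D5:**
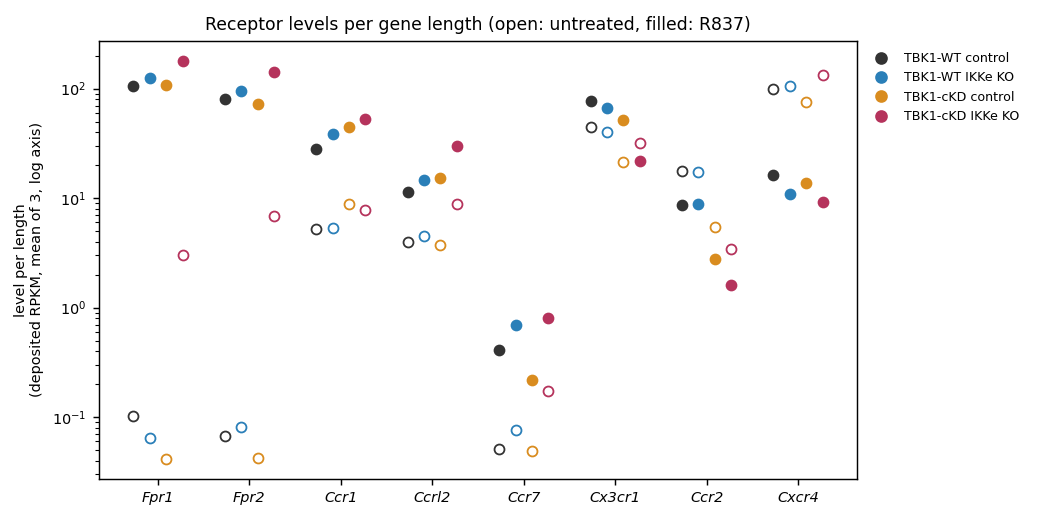
Level per gene length (vertical axis, mean of 3 deposited RPKM values, log scale) of each receptor in the 4 genotypes, untreated (open) and after R837 (filled). In TBK1-WT control Cxcr4 is first untreated at 99.1 RPKM, and Fpr1 is first after R837 at 106.

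Compared with one another per length, the receptors changed places. In untreated TBK1-WT control Cxcr4 was first at 99.1 RPKM, then Cx3cr1 at 44.5, Ccr2 at 17.5, Ccr1 at 5.22 and Ccrl2 at 3.98, and Fpr1, Fpr2 and Ccr7 lay at or below 0.103. After R837 Fpr1 was first at 106 RPKM and Fpr2 second at 79.7, then came Cx3cr1 at 77.2, Ccr1 at 28 and Cxcr4 at 16.1. Fpr1 and Fpr2 were the first 2 in every treated genotype, and Cxcr4 and Cx3cr1 the first 2 in every untreated one. In the treated libraries labelled as TBK1-cKD IKKe knockout Ccr1 (52.7 RPKM) and Ccrl2 (29.7) stood above Cx3cr1 (21.9), and Ccr2 was down to 1.60.

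Among 24 other receptors of these families, 20 had a count and 7 passed the filter. In TBK1-WT control 4 of the 7 rose and 2 fell with R837 (30.6% and 32.0% of all genes), with a median of 1.04. Among those that rose were Ccr9 (3.17 ± 0.47 log2, at scarce counts), the chemerin receptor Cmklr1 (2.25 ± 0.09) and the eotaxin receptor Ccr3 (1.89 ± 0.15). Cxcr3 fell by 3.65 log2 (SE 0.27) and Cxcr2, the receptor of neutrophil chemokines, by 2.88 (SE 0.75) from traces. Cmklr1 followed Ccrl2, with which it shares the ligand chemerin, in being higher in untreated libraries labelled as TBK1-cKD IKKe knockout, at 39.6 to 42.4 CPM against 16.1 to 19.7 in TBK1-WT control (1.15 ± 0.09, adjusted p = 5.08e-09). Rarres2, which encodes chemerin, held 32 counts over all libraries and was not tested.

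The ligands of the 8 receptors were read from a list of 18 genes, of which 16 had a count and 15 were tested. In TBK1-WT control 13 rose and 2 fell with R837 (30.6% and 32.0% of all genes), with a median of 2.23 beside -0.04 over all genes. Saa3, a serum amyloid A of the kind that Fpr2 binds, went from 0.567 to 2.21 CPM up to 4195 to 8326 (12.28 ± 0.55 log2), and Ccl5, a ligand of Ccr1, from 1.37 to 3.66 up to 520 to 603 (8.06 ± 0.27). Both were also raised before treatment in the libraries labelled as TBK1-cKD IKKe knockout, Saa3 to 403 to 466 CPM (8.56 ± 0.50, adjusted p = 3.69e-11) and Ccl5 to 87.8 to 114 (5.58 ± 0.25, adjusted p = 5.34e-13). In that comparison 5 of 15 ligands were higher and 2 lower (8.52% and 5.10% of all genes), and after R837 9 were higher and 1 lower (16.7% and 15.5%). Saa genes are near copies of one another, so their counts are uncertain.

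Ligand and receptor did not always move together. Ccl2, the ligand of Ccr2, rose with R837 in TBK1-WT control by 0.90 ± 0.12 log2 (adjusted p = 1.67e-06) where Ccr2 fell. Cxcl12 fell with Cxcr4, by 1.74 log2 (SE 0.44, adjusted p = 0.00159), but never passed 1.13 CPM. Cx3cl1, the fractalkine gene, rose by 0.54 ± 0.18 (adjusted p = 0.0122) beside Cx3cr1, and both were lower in the treated libraries labelled as TBK1-cKD IKKe knockout than in TBK1-WT control (-0.70 ± 0.18 for Cx3cl1, adjusted p = 0.00421). Anxa1, which encodes annexin A1, was the other ligand that fell, by 0.45 log2 (SE 0.14, adjusted p = 0.00931). The Ccr7 ligands Ccl19 and Ccl21a had no count in any library.

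Downstream of the receptors, a list of 30 genes of G protein signalling and desensitisation had 29 tested members, of which 17 rose and 10 fell with R837 in TBK1-WT control, with a median of 0.38 (30.6% and 32.0% of all genes, with a median of -0.04). Rac2, a small GTPase of migration, rose by 2.37 ± 0.07 log2, Pik3r5, a regulatory subunit of phosphoinositide 3-kinase gamma, by 2.32 ± 0.11, and the receptor kinase Grk5 by 1.27 ± 0.07. The 3 largest falls of the list were in genes of regulators that end G protein signals, with -4.14 ± 0.29 log2 for Rgs1, -3.95 ± 0.07 for Rgs2 and -2.92 ± 0.12 for Rgs18. After R837 Rgs2 and Rgs18 were lower still in the libraries labelled as TBK1-cKD IKKe knockout (-2.09 ± 0.08 and -1.42 ± 0.14, adjusted p = 3.69e-14 and 5.14e-08). Rgs16, a gene of the same family, was higher there than in TBK1-WT control (1.46 ± 0.28, adjusted p = 0.000321). In that comparison 2 of 29 genes were higher and 11 lower (16.7% and 15.5% of all genes). With only the 2 groups fitted, 1 was higher and 7 lower, with a term for nuclear RNA and on libraries low in it 5 were higher, without TBK1-WT control replicate 1 there were 4 higher, and without a count filter 1.

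Neutrophils are the cells in which formyl peptide receptors are best known, so neutrophil genes are set beside Fpr1 and Fpr2. Their summed level over 12 genes was 12.5 to 15.9 CPM in untreated TBK1-WT control and 12.7 to 13.8 in the untreated libraries labelled as TBK1-cKD IKKe knockout, where Fpr1 and Fpr2 were raised. It went to 45.9 to 52.2 and 158 to 271 CPM after R837. Mmp8 led it except after R837 in the TBK1-cKD genotypes, where S100a8 did. After R837 S100a8, Camp and Mmp8 were higher in the labelled group than in TBK1-WT control (3.16 ± 0.18, 1.48 ± 0.43 and 0.73 ± 0.16, adjusted p = 1.89e-11, 0.0101 and 0.00106). In that comparison 3 of the 9 tested neutrophil genes were higher and 4 lower (16.7% and 15.5% of all genes). Among the lower ones were Ltf, S100a9 and Ngp (-3.35 ± 0.62, -4.18 ± 0.44 and -4.55 ± 0.70, adjusted p = 0.000272, 1.51e-07 and 2.44e-05). Ly6g was at 0 in 21 of 24 libraries, Retnlg in 19 and Elane in 15. Before treatment 1 of the 9 tested neutrophil genes was higher in the labelled libraries than in TBK1-WT control, Mmp8 (0.78 ± 0.17, adjusted p = 0.00339), and 4 were lower (8.52% and 5.10% of all genes). Among the lower ones were S100a9, Ngp and Ltf (-4.01 ± 0.42, -4.71 ± 0.59 and -3.80 ± 0.45, adjusted p = 5.42e-07, 5.85e-06 and 4.81e-06). Untreated TBK1-cKD control, where Fpr1 and Fpr2 were not called, had 0 higher and 4 lower (2.40% and 2.65%). S100a9, Ngp and Ltf were among these too (-3.26 ± 0.39, -4.10 ± 0.55 and -3.25 ± 0.42). After R837 TBK1-cKD control had 1 higher and 3 lower (4.48% and 4.41%). The part of these genes in the Fpr1 and Fpr2 values was not tested.

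The genes whose levels followed each receptor most closely over the 8 group means were read by the root mean square difference of centred log2 CPM, a smaller value meaning a closer match. Fpr1 and Fpr2 were each other's nearest gene, at 0.57, followed by Cxcl3 for Fpr1 (0.74) and Acod1, the gene of itaconate synthesis, for Fpr2 (0.80). Nearest to Ccr1 were Prss46 (0.15) and Acoxl (0.18), to Ccrl2 Chst1 (0.16) and Plpp3 (0.20), and to Ccr7 Syt17 (0.22) and Nupr1 (0.45). Spn (0.22) and Arhgap27 (0.28) were nearest to Cx3cr1, Serpinf1 and Ephb2 (both 0.28) to Ccr2, and Arhgap22 (0.17) and Camk2b (0.19) to Cxcr4. Spn, which encodes CD43, had 5.25 log2 CPM in untreated TBK1-WT control and 6.80 after R837, but 4.93 and 4.63 in the libraries labelled as TBK1-cKD IKKe knockout, and so lacked the rise there as Cx3cr1 did. Serpinf1 went down from 1.18 to 0.17 log2 CPM between untreated TBK1-WT control and TBK1-cKD control, as Ccr2 did. These are descriptions over 8 means.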

How the data were processed

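RNA of bone marrow-derived macrophages was measured in 24 TruSeq RNA v2 libraries of single-end reads, per the labels' protocols; the kit does not mark strand. The deposited counts are raw whole numbers for each Ensembl gene. Alignment was by GSNAP on GRCm38, per the submitters' processing notes, while the sources used here do not give the counting program, annotation release or read filters. RPKM, values the authors deposited beside the counts and gene widths, served only to compare receptors with one another.

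Counts were filtered with filterByExpr (minimum count 10, minimum total 15), scaled by TMM and fitted with edgeR 4.0.16 in R 4.3.3, 1 mean per group over all 24 libraries, with quasi-likelihood F tests for 16 comparisons and Benjamini-Hochberg adjustment over 14681 genes at 0.05. A biological coefficient of variation of 0.116 (common value) was estimated, and 16 degrees of freedom remained. A standard error is the size of the log2 change over the square root of F. Log2 CPM used an offset of 0.5 counts. Intervals of count ratios are exact 95% intervals and cover counting error only. Depth was 19727746 to 41323219 counts per library. R837 TBK1-cKD control replicate 2 had the fewest counts and 14226 genes with a count, against up to 19804 elsewhere.

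Alternatives were DESeq2 size factors, DESeq2 1.42.0, no count filter, only the groups compared, each replicate left out, and the nuclear RNA level (high or low) as a term or as a choice of libraries. Only R837 TBK1-WT control and the treated libraries labelled as TBK1-cKD IKKe knockout hold both levels. The term therefore rests on replicate 1 of the former and replicate 3 of the latter, set against the other libraries of their groups. Replicate numbers follow the order of the records. The receptors, the lists of other genes and the tests were chosen with earlier results of these data known. All members were named; from each list of receptors, ligands or signalling genes the named ones are up to 3 called genes of largest change in each direction, for each receptor its 2 most similar genes, and of marker lists the defining genes. Ccl2, Cx3cl1, Rarres2 and single marker genes were named after their values were seen. Coordinates are from GENCODE M21 and promoter windows from RefSeq, which matched 7 of 8 members (not Ccr7). Receptors of similar sequence (Fpr genes, Ccr1 and Ccr1l1, Ccr2 and related receptors) may share reads of this length. Some genes are not reported here.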

Additional observations from a re-analysis of the deposited data

Results flagged for a closer look

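The response to R837 differed from that of TBK1-WT control, by a test of the difference itself, for these receptors. In TBK1-WT IKKe knockout Cxcr4 fell further (-0.63 ± 0.10 log2, adjusted p = 0.00513, edgeR). In TBK1-cKD control Cx3cr1 rose further (0.50 ± 0.12, adjusted p = 0.0433). In the libraries labelled as TBK1-cKD IKKe knockout Cx3cr1 differed by -1.22 ± 0.12 (adjusted p = 1.25e-07), Cxcr4 by -1.08 ± 0.10 (adjusted p = 1.22e-07), Fpr1 by -3.85 ± 0.34 (adjusted p = 4.23e-08) and Fpr2 by -5.64 ± 0.35 (adjusted p = 3.04e-10).

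After R837 the effect of IKKe knockout differed between the TBK1 backgrounds, again by a test of the difference, for 5 receptors. The values were -0.76 ± 0.12 for Ccr2 (adjusted p = 0.000111), 0.68 ± 0.20 for Ccrl2 (adjusted p = 0.0189), -0.92 ± 0.12 for Cx3cr1 (adjusted p = 1.36e-05), 0.58 ± 0.19 for Fpr1 (adjusted p = 0.0322) and 0.82 ± 0.19 for Fpr2 (adjusted p = 0.00446). All of them rest on the libraries labelled as TBK1-cKD IKKe knockout, where Ikbke RNA was 77.7, 82.7 and 259 CPM after R837 against 239 to 248 in TBK1-cKD control. The library at 259 CPM had high nuclear RNA, and those of TBK1-cKD control low. On the TBK1-WT background Ikbke was at 75.6 ± 4.58 CPM in treated IKKe knockout and 286 ± 104 in its control.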

How the results depend on the processing

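No paired analysis was possible because the labels give no replicate numbers that tie libraries of different groups to one mouse. The number of receptors called stayed within 1.5 times the reported one in 195 of 213 recalculations. Receptors called in TBK1-WT IKKe knockout after R837 numbered 1, but 2 without a count filter, with a term for nuclear RNA and on libraries of low nuclear RNA, 0 with only the groups compared, and 1 to 2 with a replicate left out. With only the groups compared, TBK1-cKD control after R837 gave 1 in place of 4, the response differences of TBK1-cKD control and of TBK1-WT IKKe knockout 0 in place of 1 each, and the interaction 3 in place of 5. Such fits have fewer libraries to estimate the spread. The shares of all genes called in them are not given, so these drops do not set the receptors apart. The response difference of TBK1-cKD control gave 0 to 1 with a replicate left out, by edgeR. No called receptor value changed sign under an alternative (0 of 82), and 13 of the 46 uncalled ones did. Fpr1 in TBK1-cKD control after R837 was 0.09, but -0.04 with nuclear RNA as a term, -0.05 on libraries of low nuclear RNA, and -0.06 to 0.18 with a replicate left out; Fpr2 there ranged from -0.23 to 0. The Ccr1 interaction of -0.10 became 0.20 under both settings and -0.24 to 0.07 with a replicate left out, and the Ccr2 response difference of the libraries labelled as TBK1-cKD IKKe knockout ranged from -0.01 to 0.11. The other sign changes came with a replicate left out. In untreated TBK1-WT IKKe knockout Ccr1 ranged from -0.07 to 0.20, Ccr2 from -0.05 to 0.01 and Fpr2 from -0.12 to 0.62, and its response differences from -0.03 to 0.67 for Ccr7, -0.13 to 0.01 for Cx3cr1 and -0.33 to 0.41 for Fpr2. In TBK1-cKD control Ccr7 untreated ranged from -0.41 to 0.28, and the response differences from -0.24 to 0.07 for Ccr1 and -0.05 to 2.08 for Fpr2. A group left with 2 libraries shares the spread of all groups. Few untreated counts of Fpr1, Fpr2 and Ccr7 limit the precision of their changes, and 3 libraries per group limit small differences.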
